A study of Mus musculus with 6 samples.

Results

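The genes described here are those whose symbol follows the pattern Clec, a number and a letter (as in Clec7a), which names proteins with a C-type lectin domain; Clec10a was excepted. The deposited table of 52550 genes held 33 such symbols, none repeated, and 32 genes remained. They were followed in mouse macrophages of strain C57BL/6, obtained by culturing marrow cells for 7 days with 25 ng/ml of macrophage colony-stimulating factor. One group of 3 samples received medium in which apoptotic chondrocytes had been kept (AC CM), and the other group of 3 received medium of normal chondrocytes (C CM). The labels give neither the age of the mice nor whether samples of one group are separate animals or cultures. Each p-value therefore rests on sample spread that could be purely technical. The comparison asks how medium of dying cartilage cells changes the macrophages.

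C-type lectin receptors are membrane proteins that bind sugars, lipids and proteins of microbes and of damaged cells. Many sit on macrophages, dendritic cells and neutrophils. Activating receptors recruit the kinase Syk, either through a tyrosine motif of their own or through the adaptors encoded by Fcer1g and Tyrobp, and signal on through Card9, Bcl10 and Malt1. Others carry an inhibitory motif that recruits phosphatases encoded by Ptpn6 and Ptpn11, and a further group serves as ligands for receptors of natural killer (NK) cells.

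The libraries held between 70802852 and 80105872 counts after AC CM and between 65630784 and 68852308 after C CM. Macrophage genes were abundant in all 6 libraries. The 12 listed markers summed to 22762 to 23616 CPM (counts scaled to library size) after AC CM and 25322 to 26725 after C CM. Of the 12, 4 were lower (against 13.3% of all genes tested), 0 higher and 8 did not pass. Some libraries stood apart. AC CM replicates 2 and 3 held 36283 and 77432 counts of Alb, a hepatocyte gene, against 2684 in AC CM replicate 1 and 1972, 90 and 17 in C CM replicates 1, 2 and 3. C CM replicate 1 differed more from its companions (chi-square per gene 61.5 and 63.2) than they did from each other (27.2). Results that rest on these libraries are given with and without them. Where AC CM replicate 1 was the only AC CM library kept, it is assumed to vary like the C CM libraries. Fold changes are log2 ratios of AC CM to C CM and carry a standard error (SE); means carry the SD over n = 3 samples in each group.

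The genes lie mostly together: 25 of 32 are on chromosome 6. One cluster there holds 9 genes from Clec4a1 to Clec4e, and a second holds 13 from Clec2j to Clec7a. Promoters are shown for the genes with the largest called changes in each direction among those at 5 CPM or more in a group: Clec4d and Clec5a, which were higher after AC CM, and Clec7a and Clec4b1, which were lower. Each runs from 250 bases before to 50 bases after a RefSeq transcript start on GRCm38.p6 and is written in the direction of transcription. The positions are chr6:123261857-123262156 (plus strand) for Clec4d, chr6:40585756-40586055 (minus) for Clec5a, chr6:129472730-129473029 (minus) for Clec7a and chr6:123049712-123050011 (plus) for Clec4b1. Capitals mark the letters GAGGAA on either strand, a core bound by PU.1, the transcription factor that macrophages depend on.
Clec4d: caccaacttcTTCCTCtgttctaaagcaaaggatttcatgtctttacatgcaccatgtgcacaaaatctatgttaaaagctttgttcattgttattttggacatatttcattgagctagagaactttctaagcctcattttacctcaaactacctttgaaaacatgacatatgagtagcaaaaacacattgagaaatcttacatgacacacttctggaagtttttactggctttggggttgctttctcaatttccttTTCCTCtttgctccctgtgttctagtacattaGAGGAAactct
Clec5a: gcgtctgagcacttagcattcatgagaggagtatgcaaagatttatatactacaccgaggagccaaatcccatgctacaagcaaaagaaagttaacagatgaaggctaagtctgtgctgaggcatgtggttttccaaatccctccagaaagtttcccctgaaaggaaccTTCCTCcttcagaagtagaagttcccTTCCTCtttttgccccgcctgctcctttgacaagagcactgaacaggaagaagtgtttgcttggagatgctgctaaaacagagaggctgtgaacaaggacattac
Clec7a: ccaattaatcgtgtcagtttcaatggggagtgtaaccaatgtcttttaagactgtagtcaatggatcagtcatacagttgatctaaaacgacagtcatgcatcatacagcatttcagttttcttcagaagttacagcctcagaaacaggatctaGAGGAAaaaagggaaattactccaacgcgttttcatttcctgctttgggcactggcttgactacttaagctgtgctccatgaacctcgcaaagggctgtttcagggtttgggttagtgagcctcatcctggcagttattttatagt
Clec4b1: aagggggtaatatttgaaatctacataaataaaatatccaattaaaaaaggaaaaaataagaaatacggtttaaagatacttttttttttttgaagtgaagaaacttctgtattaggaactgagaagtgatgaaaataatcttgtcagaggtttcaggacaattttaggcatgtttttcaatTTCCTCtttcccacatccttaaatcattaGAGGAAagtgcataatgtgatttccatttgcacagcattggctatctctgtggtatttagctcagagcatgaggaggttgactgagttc
The motif occurred 3 times in the Clec4d window, 2 times each in those of Clec5a and Clec4b1, and 1 time in that of Clec7a, so it was present in genes that were higher and in genes that were lower. RefSeq windows were found for 25 of the 32 genes, 28 windows in all, and 16 of these 28 (57.1%) held it, against 28.3% of all 32851 windows of the same length. The letters TTGCNNAA, a C/EBP motif, were in 6 of 28 (21.4%) against 10.8% of all, and TGANTCA, an AP-1 motif, also in 6 of 28 (21.4%) against 7.81%. A motif of NF-kB (GGG, any 5 bases, CC) was in 5 of 28 (17.9%) against 50.8%. None of the C/EBP, AP-1 and NF-kB motifs was in the 4 windows shown. Windows were not matched for base composition, on which the shares of such short patterns depend. Clec4a3, Clec2i and Clec7a each entered with 2 overlapping windows, which were counted separately. No overlap with another motif was looked for, and a match of letters is not a bound site.

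Of the 32 genes, 22 had enough counts to be tested with edgeR's quasi-likelihood test. After AC CM 3 were higher, 9 were lower and 10 did not pass the threshold of 0.05 for p adjusted over the 17863 genes that entered the test. The share called was 54.5%, against 26.5% of all genes tested; 13.6% were called higher, against 13.3%, and 40.9% lower, against 13.3%. The 3 values of the groups did not overlap for 14 of the 22 (63.6%), against 44.7% of all genes. The median log2 fold change was -0.53, against -0.00 over all genes. The genes that were higher were Clec4d, Clec5a and Clec4n. Those that were lower were Clec7a, Clec4b1, Clec4b2, Clec4a3, Clec2d, Clec2i, Clec1b, Clec9a and Clec14a. Clec14a passed the filter on low counts only through the C CM libraries, and Clec9a through them and a single AC CM library. In whole-culture RNA, fewer cells of a type and less RNA per cell cannot be told apart. With replicate 1 as the sole AC CM library, 1 gene was higher (Clec4d) and 5 were lower (Clec7a, Clec4b1, Clec4b2, Clec2i and Clec1b). The authors' deposited table called 13 of the 32, the same 12 and Clec16a.

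**Figure D1:**
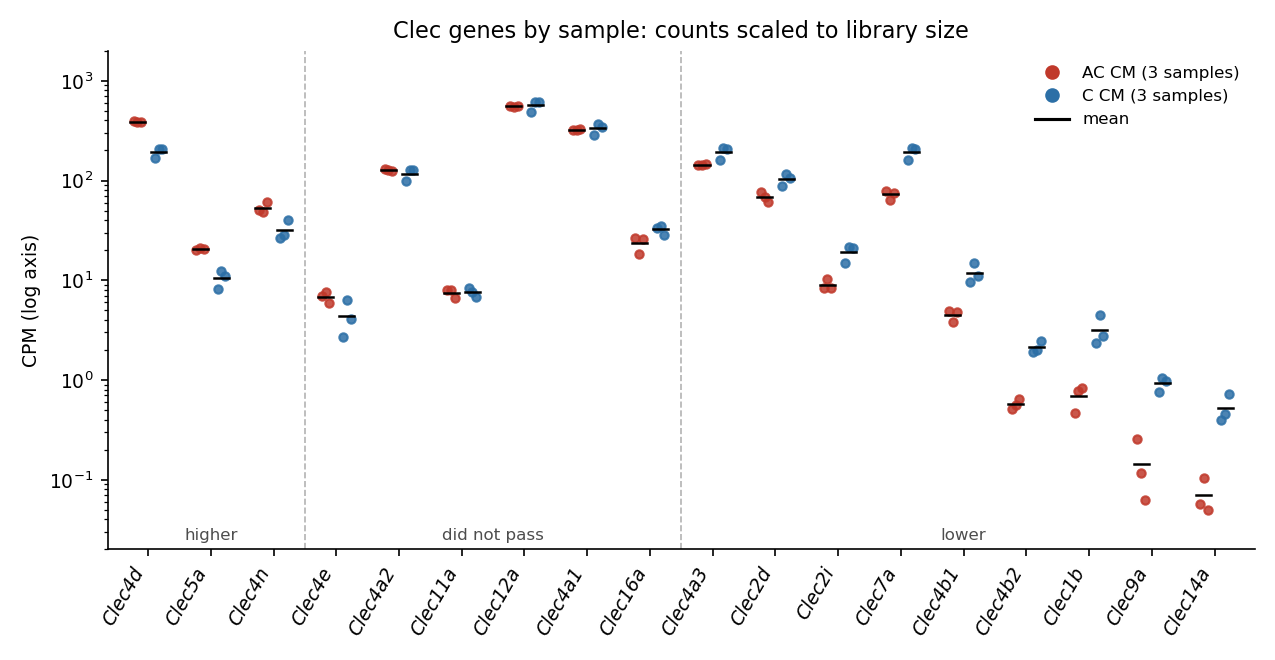
CPM (log axis) of the 18 Clec genes that passed the test or averaged at least 5 CPM in a group, with 1 point per sample, AC CM left of C CM, and the mean as a bar. Clec4d stands at 383 to 391 after AC CM, above the 170.0 to 208 of C CM, while Clec7a stands at 64.5 to 79.4, below the 159 to 211 of C CM.

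Receptors that activate Syk moved both ways. Clec4d, also called MCL, binds mycobacterial glycolipid and pairs with the adaptor of Fcer1g. It had 391, 383 and 383 CPM in AC CM replicates 1, 2 and 3, against 170.0, 205 and 208 CPM in C CM replicates 1, 2 and 3. The groups were far apart, and the AC CM samples lay closer together than the C CM ones. The gene (ENSMUSG00000030144.4, chromosome 6, 123262111 to 123275265, plus strand) was 1.98-fold higher, or 0.99 on the log2 scale (SE 0.08, adjusted p = 6.5e-05). Leaving out any single library kept it between 0.90 and 1.04. Clec4n encodes Dectin-2, a receptor for fungal mannans. Its values were 51.1, 48.7 and 60.8 CPM after AC CM, against 26.7, 28.3 and 40.1 CPM after C CM, with no overlap. It rose by 0.76 (SE 0.16, adjusted p = 0.00918), but did not pass without C CM replicate 1 (0.65, adjusted p = 0.0542) or with replicate 1 as the sole AC CM library (0.68, adjusted p = 0.125). Clec4e encodes Mincle, which senses mycobacterial cord factor and a nuclear protein set free by dead cells. It had 6.90, 7.64 and 5.91 CPM after AC CM, against 2.67, 6.32 and 4.05 CPM after C CM. C CM replicate 2 overlapped the AC CM range, and the gene did not pass at 0.65 (SE 0.28, adjusted p = 0.126). Without that library it did, at 1.02 (adjusted p = 0.0208).

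Clec5a (chromosome 6, 40574894 to 40585821, minus strand) lies outside both clusters and encodes MDL-1, a myeloid receptor that signals through the adaptor of Tyrobp. It had 19.998, 21.2 and 20.8 CPM after AC CM, against 8.24, 12.5 and 11.2 CPM after C CM. Every AC CM sample exceeded every C CM sample. It rose by 0.96 (SE 0.15, adjusted p = 0.00193), and came to 0.91 from replicate 1 as the sole AC CM library (adjusted p = 0.0669).

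Clec7a encodes Dectin-1, the receptor for beta-glucans of fungal walls, which carries its own tyrosine motif for Syk. It had 79.4, 64.5 and 75.8 CPM after AC CM, against 159, 211 and 206 CPM after C CM. The lowest C CM sample was above the highest AC CM sample. The gene (ENSMUSG00000079293.11, chromosome 6, 129461591 to 129472779, minus strand) was 2.62-fold lower, or -1.39 on the log2 scale (SE 0.12, adjusted p = 8.13e-05). Leaving out a single library gave -1.51 to -1.31, and keeping only replicate 1 of AC CM gave -1.28 (adjusted p = 0.00703). Clec4d and Clec7a thus parted. Their CPM stood in a ratio of 4.93, 5.94 and 5.05 in the AC CM libraries, against 1.07, 0.972 and 1.01 in the C CM libraries. This pair was chosen after its values were seen, and the ratio is a description.

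Clec4b1 encodes DCAR, a receptor of monocytes and macrophages in the mouse that pairs with the adaptor of Fcer1g. It had 4.93, 3.83 and 4.80 CPM after AC CM, against 9.72, 14.8 and 11.2 CPM after C CM. The groups did not overlap, and the gene fell by 1.39 (SE 0.19, adjusted p = 0.000784). Its neighbour Clec4b2 had 0.511, 0.556 and 0.640 CPM after AC CM, against 1.92, 2.02 and 2.45 CPM after C CM. The groups did not overlap, and it was lower at -1.90 (SE 0.26, adjusted p = 0.000921). Clec4b1 and Clec4b2, like the Clec4a genes, are close relatives, and how reads shared by such copies were counted is not stated, so the split between them is uncertain.

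Clec1b encodes CLEC-2, best known as the podoplanin receptor of platelets and also made by some myeloid cells. It had 0.468, 0.776 and 0.828 CPM after AC CM, against 2.35, 4.49 and 2.75 CPM after C CM. The groups did not overlap, and the log2 fold change was -2.20 (SE 0.34, adjusted p = 0.00156). Of 8 megakaryocyte and platelet genes, 5 were also lower (against 13.3% of all genes tested), 1 (Pf4) was higher and 2 did not pass. Their summed level was 477 to 509 CPM after AC CM and 307 to 372 CPM after C CM, most of it Pf4, and none was at 0 throughout. Pf4 alone had 470, 501 and 468 CPM after AC CM, against 324, 327 and 274 CPM after C CM. The sum therefore follows Pf4 and does not show the 5 genes that were lower. Clec9a encodes DNGR-1, with which cross-presenting dendritic cells sense the actin of dead cells. It had 0.255, 0.116 and 0.0627 CPM after AC CM, against 0.763, 1.05 and 0.985 CPM after C CM. These are 18, 9 and 5 counts against 50, 72 and 66. The groups did not overlap, and the log2 fold change was -2.69 (SE 0.55, adjusted p = 0.00709). It was -3.36 without AC CM replicate 1 and -1.87 with replicate 1 as the sole AC CM library (adjusted p = 0.108). Of 13 dendritic cell genes tested, 10 were lower (against 13.3% of all genes tested), 0 higher and 3 did not pass. A further 1 of the 14 listed had too few counts. The list summed to 258 to 291 CPM after AC CM and 404 to 437 CPM after C CM, most of it Irf8. That gene had 271, 233 and 235 CPM after AC CM, against 358, 314 and 347 CPM after C CM. It was lower at -0.46 (SE 0.08), against a median of -1.94 over the 13 tested, so the sum says little of the other genes. Xcr1, a marker of the same dendritic cells as Clec9a, had 13, 9 and 15 counts after AC CM, against 32, 25 and 23 after C CM, and did not pass. What part these cells have in the values of Clec1b and Clec9a was not tested. Clec1b and Clec9a overlap on the same strand (chromosome 6, 129397297 to 129409335 and 129408862 to 129424763), so reads from the shared stretch may not be separable.

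The Clec4a group and Clec12a include receptors with an inhibitory motif. Of these 5 genes 1 was called, Clec4a3, which was lower, where 26.5% of all genes tested were called. Clec12a encodes MICL, a receptor with an inhibitory motif that recognises uric acid crystals of dead cells. It had 561, 546 and 559 CPM after AC CM, against 487, 618 and 610.0 CPM after C CM. The C CM samples spanned the AC CM ones, and the gene did not pass at -0.04 (SE 0.09, adjusted p = 0.775). Clec4a2 encodes DCIR1, which carries an inhibitory motif. It had 132, 129 and 126 CPM after AC CM, against 98.2, 128 and 126 CPM after C CM, and was at 0.13 (SE 0.10, adjusted p = 0.379). Clec4a1, which encodes DCIR4, had 325, 318 and 325 CPM after AC CM, against 283, 371 and 347 CPM after C CM, and was at -0.05 (SE 0.09, adjusted p = 0.762). C CM replicate 1 was the lowest of its group for Clec12a, Clec4a2 and Clec4a1. Without it Clec12a was called at -0.14 (adjusted p = 0.0137) and Clec4a1 at -0.15 (adjusted p = 0.0284). Clec4a3, which encodes DCIR3, had 144, 144 and 146 CPM after AC CM, against 160.2, 211 and 208 CPM after C CM. The groups did not overlap, and it was called lower at -0.42 (SE 0.10, adjusted p = 0.0159). That call was lost without AC CM replicate 1, 2 or 3 or C CM replicate 2 or 3 (adjusted p = 0.0521 to 0.0593), and was 0.213 with replicate 1 as the sole AC CM library. Clec4a4, which encodes DCIR2, had 0.931 to 1.04 CPM after AC CM and 1.28 to 1.72 CPM after C CM, and did not pass (-0.68, adjusted p = 0.0846). Clec12b was too low to test, with 0 to 12 counts after AC CM and 0 to 17 after C CM.

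Some products of the Clec2 genes are met by NK cell receptors of the Klrb1 family in the mouse. Of the 8 Clec2 genes, 4 could be tested and 2 were lower. Among all genes tested, 13.3% were called lower. Clec2d encodes Clr-b, a ligand found on most blood-derived cells that restrains NK cells through the receptor encoded by Klrb1b. It had 75.9, 68.7 and 60.6 CPM after AC CM, against 87.2, 117 and 107 CPM after C CM. No AC CM sample reached the C CM range, and the gene fell by 0.60 (SE 0.12, adjusted p = 0.00639). From replicate 1 as the sole AC CM library it came to -0.45 (adjusted p = 0.199). Clec2i encodes Clr-g, a ligand of the receptor encoded by Klrb1f. Its values were 8.42, 10.3 and 8.45 CPM after AC CM, against 14.9, 21.4 and 20.9 CPM after C CM. The groups were apart, and it fell by 1.08 (SE 0.16, adjusted p = 0.00146). BC035044, on the other strand, overlaps Clec2i, and whether counting used strand is not given, so reads of both may be mixed. Clec2g (7 to 26 counts over all samples) and Clec2e (0 to 28) did not pass. Clec2f and Clec2l reached 6 and 8 counts in their highest sample, and Clec2h and Clec2j had 0 in all 6.

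Klrb1b had 40, 9 and 20 counts after AC CM, against 77, 128 and 154 after C CM, or -2.52 on the log2 scale (SE 0.54, adjusted p = 0.00887). Klrb1f had 17, 8 and 28 counts, against 74, 104 and 116 (-2.64, SE 0.46, adjusted p = 0.00316). With replicate 1 as the sole AC CM library Klrb1b did not pass (-1.65, adjusted p = 0.111). So the receptor genes, both under 1 CPM after AC CM, were lower in the same cultures as the ligand genes Clec2d and Clec2i. Of 9 tested B, T and NK cell genes, 8 were lower (against 13.3% of all genes tested), 0 higher and 1 did not pass. A further 3 were too low to test. Their summed level was 10.5 to 10.8 CPM after AC CM and 28.7 to 34.3 CPM after C CM, with none at 0 throughout. What these cells contribute was not tested.

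**Figure D2:**
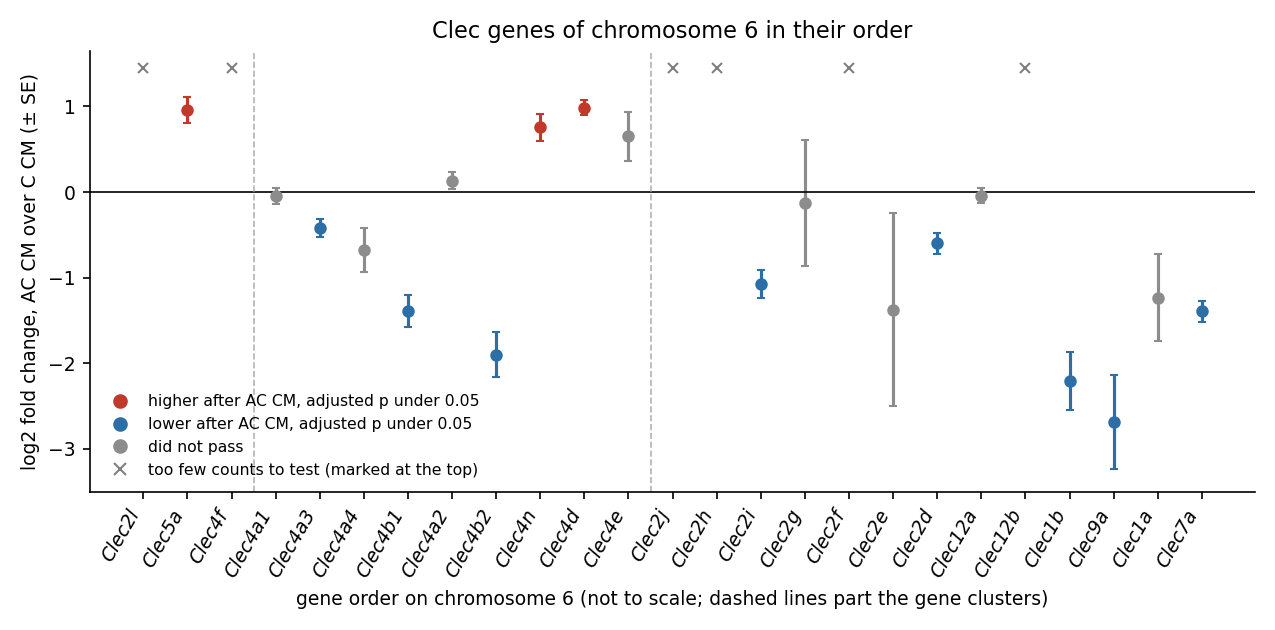
Log2 fold change with its SE (vertical axis) of the 25 Clec genes of chromosome 6 in the order in which they lie (horizontal axis, not to scale). In the cluster from Clec4a1 to Clec4e, genes that were lower (Clec4a3, Clec4b1, Clec4b2) lie before the neighbours Clec4n and Clec4d, which were higher, while no gene of the cluster from Clec2j to Clec7a was called higher.

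The genes are given here by their place on chromosome 6; a difference between the clusters was not tested. In the cluster from Clec4a1 to Clec4e all 9 genes were tested, of which 2 were higher, 3 lower and 4 did not pass, with a median of -0.05. Clec4b2 (123172893 to 123204671) at -1.90 and Clec4n (123229843 to 123247021) at 0.76 are next to each other on the same strand. In the cluster from Clec2j to Clec7a 9 of 13 were tested, of which 0 were higher, 5 lower and 4 did not pass, with a median of -1.23. Over all genes tested 13.3% were called higher and 13.3% lower. Of the 4 in that cluster that did not pass, one was Clec1a, which encodes a receptor for fungal melanin. It had 40, 22 and 21 counts after AC CM, against 33, 52 and 91 after C CM, and was at -1.23 (SE 0.51, adjusted p = 0.108).

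Levels were compared between genes per length, as RPKM, the CPM divided by the length of annotated exon in kilobases, which could be computed for 31 of the 32 genes. After AC CM Clec4d came first (241 ± 2.96 RPKM), followed by Clec4a1 (207 ± 2.45), Clec4a3 (109 ± 0.884), Clec12a (100.4 ± 1.48), Clec2d (56.4 ± 6.33), Clec4a2 (43.99 ± 0.955), Clec4n (37.7 ± 4.50) and Clec7a (27.7 ± 2.95). None of these 8 overlapped its neighbour in its sample values. After C CM the order was Clec4a1 (214 ± 29.1 RPKM), Clec4a3 (146 ± 21.6), Clec4d (122 ± 13.4), Clec12a (103 ± 13.3), Clec2d (85.5 ± 12.6), Clec7a (72.8 ± 10.9), Clec4a2 (40.2 ± 5.71) and Clec4n (22.3 ± 5.17). From Clec4a3 to Clec7a each neighbour in that order overlapped the next. Clec4d thus ranked 1 after AC CM and 3 after C CM, and Clec7a ranked 8 after AC CM and 6 after C CM. Lengths are those of all annotated exons of a gene together, so a gene read mainly from a short transcript has its level understated. The summed CPM of the 32 genes was 1775 to 1836 after AC CM and 1556 to 2000 after C CM, so the groups overlapped in the total.

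**Figure D3:**
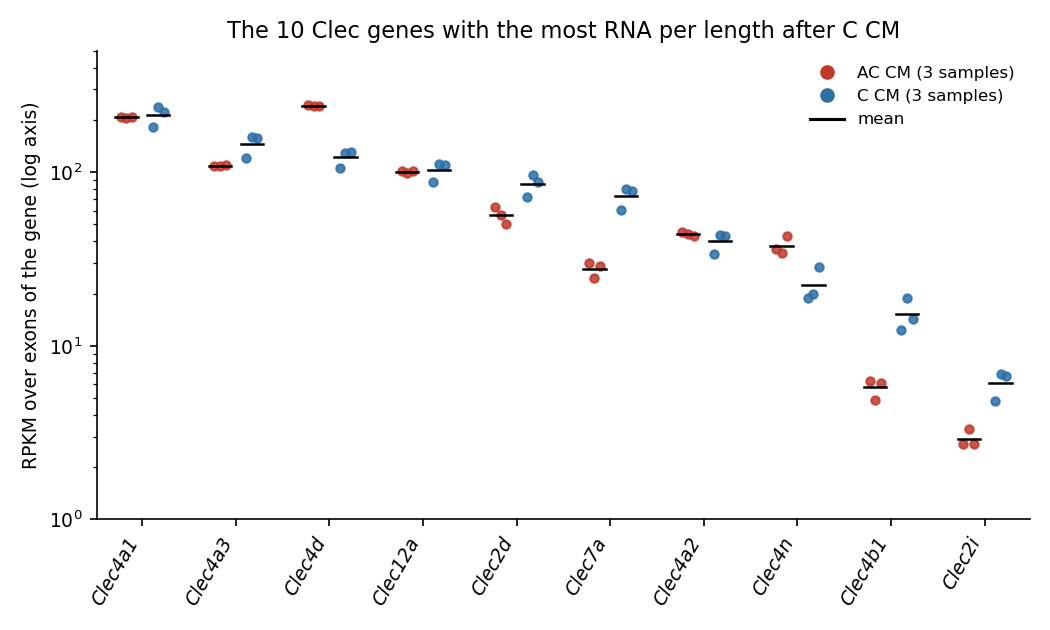
RPKM (log axis) of the 10 Clec genes with the highest mean after C CM, 1 point per sample with AC CM left of C CM and the mean as a bar. Clec4d is the highest after AC CM at 241 RPKM on average, and Clec7a drops to 27.7 RPKM, against 72.8 RPKM after C CM.

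The other genes were low or are no membrane receptors of macrophages. Clec14a, an endothelial gene, had 4, 8 and 4 counts after AC CM, against 26, 31 and 48 after C CM. It was at -2.86 (SE 0.60, adjusted p = 0.00775), and at an adjusted p of 0.104 with replicate 1 as the sole AC CM library. Clec11a, which encodes a secreted growth factor of bone and blood precursors, had 8.06, 7.95 and 6.57 CPM after AC CM, against 8.39, 7.54 and 6.82 CPM after C CM. It was at -0.01 (SE 0.14, adjusted p = 0.967), with the groups interleaved. Clec16a, which encodes an intracellular protein of autophagy, had 26.2, 18.5 and 26.2 CPM after AC CM, against 33.2, 35.3 and 28.3 CPM after C CM. The groups did not overlap, and the test just missed the threshold (-0.45, SE 0.15, adjusted p = 0.0531); the authors' deposited table had it at an adjusted p of 0.0263.

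Clec4f and Clec4g are markers of liver, the first of Kupffer cells and the second of the endothelium of liver sinusoids. Clec4f reached 0, 4 and 7 counts after AC CM, in the order of the replicates, against 0 in all C CM libraries. Clec4g had 0, 13 and 11 counts after AC CM, against 0 in all C CM libraries, where a count of 0 allows up to 0.0436 to 0.0457 CPM. Both were detected only in the libraries with the most Alb counts, and both were too low to test. Of 12 hepatocyte genes, 11 did not pass and Trf was lower, while the median log2 fold change of the list was 4.93; it summed to 356 to 1851 CPM after AC CM and 516 to 600 CPM after C CM. Most of the C CM sum was Trf, which macrophages also express. Without it the other 11 genes summed to 51.5, 606 and 1445 CPM after AC CM, against 47.5, 1.71 and 0.478 CPM after C CM. Of 5 further Kupffer cell genes, which macrophages in culture also express, 4 were lower (against 13.3% of all genes) and 1 did not pass. Their sums were 291 to 322 CPM after AC CM and 555 to 580 CPM after C CM, mostly from Cd5l. Whether liver RNA is in these libraries was not tested. Clec3b, which encodes the secreted protein tetranectin, had 6, 36 and 9 counts after AC CM, against 4, 0 and 4 after C CM, and was not tested. Clec3a, a cartilage gene, and Clec18a had 0 counts in all 6 libraries. Of 6 tested among 8 chondrocyte genes 2 were higher (Col11a1 and Prg4), 0 lower and 4 did not pass. Over all genes tested 13.3% were called higher. The chondrocyte sums were 109 to 112 CPM after AC CM and 71.4 to 83.4 CPM after C CM.

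Genes that carry the signal of these receptors were described from a list of 33, all tested. After AC CM 4 were higher, 11 were lower and 18 did not pass, with a median of -0.11. Of all genes tested, 13.3% were called higher and 13.3% lower. Syk, the kinase that the activating receptors share, had 267, 270.2 and 274 CPM after AC CM, against 421, 417 and 402 CPM after C CM. The groups were far apart, and Syk fell by 0.61 (SE 0.06, adjusted p = 9.4e-05). Fcer1g, the adaptor of Clec4d, Clec4e and Clec4n, had 914, 842 and 829.8 CPM after AC CM, against 764, 724 and 668 CPM after C CM. It was called higher by 0.26 (SE 0.07, adjusted p = 0.0238). That call was lost without AC CM replicate 1, 2 or 3 or C CM replicate 2 or 3 (adjusted p = 0.0555 to 0.119). Tyrobp, the adaptor of Clec5a, averaged 674 ± 23.7 CPM after AC CM and 642 ± 48.4 CPM after C CM (0.07, adjusted p = 0.506). Card9 averaged 42.9 ± 2.27 CPM after AC CM and 47.8 ± 1.38 CPM after C CM (-0.16, adjusted p = 0.158). Neither passed.

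Among the other signalling genes, the Vav genes encode exchange factors that Syk phosphorylates. One was higher, one lower, and Vav1 did not pass (0.20, adjusted p = 0.0653). Vav3 rose by 1.12 (SE 0.11) to 142 ± 5.30 CPM in AC CM samples, against 65.5 ± 10.9 CPM in C CM samples. Vav2 fell by 0.94 (SE 0.07), with 55.6 ± 1.09 CPM after AC CM and 106 ± 5.46 CPM after C CM. Cblb, a ubiquitin ligase that turns Syk signalling down, rose by 0.84 (SE 0.07). The Src family kinase gene Lyn rose by 0.29 (SE 0.06; adjusted p = 0.052 without AC CM replicate 1), while its relative Fgr fell by 1.44 (SE 0.12). Map3k14, the kinase of the noncanonical NF-kB route, fell by 0.52 (SE 0.07). With replicate 1 as the sole AC CM library Lyn, Fcer1g and Map3k14 did not pass (adjusted p = 0.102 to 0.186). The phosphatase genes Ptpn6 and Ptpn11, which inhibitory receptors recruit, did not pass (-0.01 and 0.03). Monocyte and neutrophil genes, cells that also use these receptors, were lower alongside. Of 9 monocyte genes 5 were lower (against 13.3% of all genes tested), 0 higher and 4 did not pass. Their sums were 958 to 1055 CPM after AC CM and 1409 to 1710 CPM after C CM. Of 11 tested neutrophil genes 10 were lower (against the same 13.3%), 0 higher and 1 did not pass. The neutrophil sums were 185 to 202 CPM after AC CM and 873 to 1021 CPM after C CM, with no gene at 0 throughout. What part monocytes and neutrophils have in the values of the receptors was not tested.

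**Figure D4:**
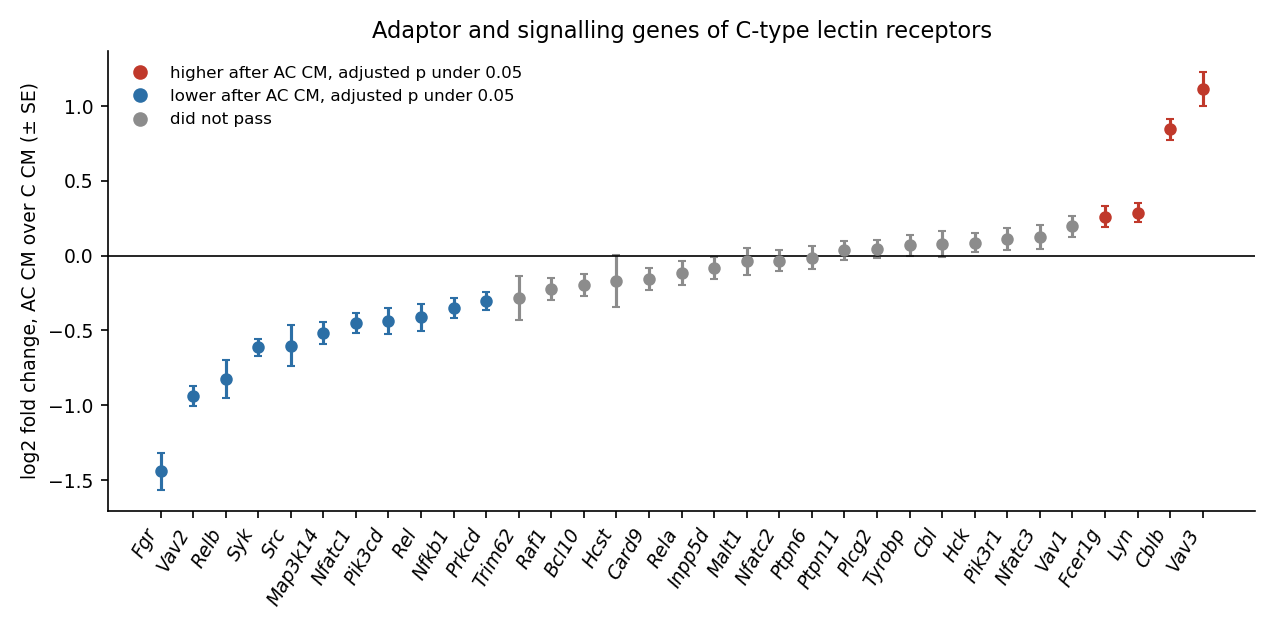
Log2 fold change with its SE (vertical axis) of 33 adaptor and signalling genes of C-type lectin receptors, ordered from lowest to highest. Fgr at -1.44, Vav2 at -0.94 and Syk at -0.61 stand among the 11 that were lower, and Vav3 at 1.12 and Cblb at 0.84 lead the 4 that were higher.

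Genes known to be induced by signalling of C-type lectin receptors gave no common direction. Of 13 tested from a list of 16, 4 were higher, 3 lower and 6 did not pass, with a median of 0.13. The share over all genes tested was 13.3% in each direction. Tnf had 21.5, 21.0 and 22.1 CPM after AC CM, against 4.10, 5.12 and 4.30 CPM after C CM, and the chemokine gene Ccl3 rose by 0.82 (SE 0.08). Nr4a1, an early nuclear receptor gene, fell by 0.66 (SE 0.12; adjusted p = 0.125 with replicate 1 as the sole AC CM library). The calls of the other genes were close to the threshold. Ptgs2 (1.01) lost it without AC CM replicate 2 or 3 or C CM replicate 1 or 2 (0.77 to 1.02, adjusted p = 0.0727 to 0.114). Cxcl2 (1.34) lost it without AC CM replicate 2 or 3 or C CM replicate 1 or 3 (1.01 to 1.36, adjusted p = 0.0964 to 0.165), and also under upper-quartile scaling (adjusted p = 0.0501) and with no filter on low counts (adjusted p = 0.0544). Egr3 (-1.32) lost it without any library but AC CM replicate 2 (-1.40 to -1.07, adjusted p = 0.0518 to 0.0854), and Il1b (-0.77) without AC CM replicate 2 or 3 or C CM replicate 2 or 3 (-0.82 to -0.60, adjusted p = 0.0779 to 0.102). Il6, Il23a and Csf2 were too low to test.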

How the data were processed

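RNA of 6 macrophage samples was sequenced after mRNA library preparation, per the labels' protocols, and samples were grouped by the treatment in their titles. The raw read counts per gene are as the authors deposited them, and their totals per sample are the depth. The authors also deposited a signal column per sample, equal to the counts divided by a constant, which was not used. Their deposited log2 fold changes and p-values were read but not used for tests. Per the submitters' processing notes, the tools were HISAT2 2.1.0, fastp 0.17.1, R 3.4.3 and DESeq2 1.18.1, without their roles; which counter and build served is not given in the sources used here. All 49035 identifiers found with the same version in GENCODE M21 (GRCm38) had its coordinates (93.3% of the table). Low counts favoured multiples of 4 (394 to 446 genes per library had a count of 3, but 696 to 814 a count of 4), so independent fragments may be fewer than the counts.

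Genes passing filterByExpr were tested in edgeR 4.0.16 (R 4.3.3) by its quasi-likelihood test in robust form after TMM scaling. Treatment was the single term, and p was adjusted by Benjamini-Hochberg over all genes tested. CPM and RPKM were computed from these sizes and GENCODE exon lengths. The fit was tested on simulated data. Alternatives were RLE and upper-quartile scaling, no count filter or 1 CPM in 3 samples, DESeq2 1.42.0, limma-voom (limma 3.58.1), the replicate number as a block, omission of each replicate, replicate 1 as the sole AC CM library, and division of the counts by 4. The genes and lists were chosen with earlier results of these data known. Members are described one by one if called or at 5 CPM or more in a group; from each list up to 4 called genes with the smallest p per direction are named, with Syk, Card9, Fcer1g and Tyrobp in every case. Clec4f, Clec4g, Klrb1b and Klrb1f beside their partners, the other low Clec genes, Xcr1, Irf8, Cd79b, Cd5l, Alb, Trf, Pf4, Col11a1, Prg4, Vav1, Ptpn6, Ptpn11 and the ratio of Clec4d to Clec7a were added after their values were seen. One gene that the rule names is not reported here. Tables and figures were made in Python 3.11.15 with matplotlib 3.10.9, numpy 2.4.6 and pandas 2.3.3.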

Additional observations from a re-analysis of the deposited data

How the results depend on the processing

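Over 15 alternatives, the direction of every call among the Clec genes was kept. All 12 calls were shared by RLE and upper-quartile scaling, DESeq2, limma-voom, no count filter and the replicate block, while 10 were shared where at least 1 CPM in 3 samples was required (Clec9a and Clec14a were then not tested) and 11 with counts divided by 4. Leaving out single replicates gave 2 to 4 genes higher and 8 to 11 lower. With replicate 1 as the sole AC CM library there were 1 higher and 5 lower, and 1274 of all genes changed, against 4741 with all samples and 3158 to 5023 without a single replicate (3158 without AC CM replicate 3). That setting also gave 2 higher and 3 lower signalling genes, 2 higher target genes, 3 higher genes among the other lectin receptors, and 0 higher and 2 lower ligand genes; it has fewer samples. By limma-voom 5 target genes were lower; the cause was not tested. Single replicates left out gave 2 to 4 higher and 10 to 11 lower signalling genes, 2 to 4 higher and 1 to 3 lower target genes, 4 to 6 higher and 13 to 14 lower genes among the other lectin receptors, and 0 to 3 higher and 5 lower ligand genes. Clec16a passed with upper-quartile scaling, the 1 CPM filter, DESeq2 and counts divided by 4 (adjusted p = 0.0201 to 0.0443). The largest shift in the median of all genes by any alternative was -0.0233, with upper-quartile scaling. Samples with the same number did not deviate together (correlations -0.12, -0.03 and -0.01), so the numbers were not taken to pair them. With the replicate block 4397 of all genes changed, and Il1b lost its call (adjusted p = 0.0538); no other call was lost among the Clec genes and the genes named from the signalling, target, lectin receptor and ligand lists, while the marker genes, Cd207 and Asgr1 were not followed one by one. Counts under about 20 per sample, as for Clec9a and Clec14a after AC CM, limit what depth can show. The limit of 3 counts per library covers counting error only, while each SE comes from the fit and includes the spread between samples.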

Other observations

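Receptors with a C-type lectin domain under other names were also described, from a list of 38, of which 27 could be tested. After AC CM 6 were higher, 13 lower and 8 did not pass, with a median of -1.12, the same with the genes at 0 after AC CM set to the limit of 3 counts per library. Over all genes tested 13.3% were higher and 13.3% lower. The count includes Cd207, Klrb1a and Asgr1, which passed the filter on low counts through the group where they were high; where at least 1 CPM in 3 samples was required, 5 were higher and 11 lower. The scavenger receptor gene Colec12 had 219.9, 229 and 206 CPM after AC CM, against 86.1, 88.6 and 93.8 CPM after C CM, a log2 fold change of 1.28 (SE 0.07, edgeR adjusted p = 5.76e-06). Klra2, a Ly49-type receptor gene, had 24.9, 22.0 and 24.2 CPM after AC CM, against 4.26, 5.77 and 6.39 CPM after C CM (2.11, SE 0.16). Cd93, a receptor of myeloid and endothelial cells, averaged 1689 ± 30.1 CPM after AC CM and 1133 ± 90.9 CPM after C CM (0.58). The mannose receptor gene Mrc1 averaged 2798 ± 119 CPM after AC CM and 1926 ± 267 CPM after C CM (0.54; adjusted p = 0.118 with replicate 1 as the sole AC CM library). Cd302 fell by 1.00 (SE 0.07), the hyaluronan receptor gene Layn by 1.42 (SE 0.18) and the NK receptor gene Klrk1 by 1.89 (SE 0.24). Cd207, which encodes langerin of Langerhans cells and was named after its values were seen, had 0 counts in all AC CM libraries, against 15, 40 and 28 after C CM. The liver lectin gene Asgr1, also named after its values were seen, had 12, 48 and 58 counts after AC CM, against 0, 0 and 5 after C CM, highest in the libraries with most Alb.

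Genes of proteins reported as ligands or partners of Clec receptors were taken from a list of 13, of which 12 were tested. Among these 2 were higher, 5 lower and 5 did not pass, with a median of -0.04, the same with the gene at 0 set to its limit. Of all genes tested, 13.3% were called in each direction. Pdpn, the podoplanin gene whose product binds CLEC-2, had 4.10, 3.19 and 2.46 CPM after AC CM, against 6.65, 8.68 and 7.21 CPM after C CM, and fell by 1.21 (SE 0.21, edgeR adjusted p = 0.00306). It was lower in the same cultures as Clec1b, and came to -0.88 from replicate 1 as the sole AC CM library (adjusted p = 0.0996). Klrb1a had 0 counts in all AC CM libraries, against 16, 27 and 16 after C CM. It passed the filter on low counts only through the C CM libraries. Klrb1a, Klrb1b and Klrb1f, all among the genes that were lower here, are NK receptor genes also counted among the lectin receptors above. Anxa5 was called higher by 0.25, and Vim, whose product is reported to bind Dectin-1, by 0.20. The Anxa5 call was lost without AC CM replicate 1 or 2 (adjusted p = 0.0548 to 0.055) and the Vim call without AC CM replicate 1, 2 or 3 or C CM replicate 3 (adjusted p = 0.0572 to 0.0916).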
